A study of Mus musculus with 6 samples.

Results

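Collagen genes were compared between WT and *Alkbh1*-/- mouse embryonic stem cells (mESCs) that were kept undifferentiated. In the deposited table of 33142 probe sets, 37 probe sets carry a symbol of the form Col, a number, a and a number, and they belong to 27 collagen genes. Each gene is represented by the probe set of that symbol with the highest mean over all arrays. Matching the identifiers of the remaining probe sets to RefSeq named 20 further collagen probe sets and with them 9 genes without a symbol in the table (*Col4a2*, *Col6a3*, *Col6a4*, *Col15a1*, *Col20a1*, *Col22a1*, *Col25a1*, *Col26a1* and *Col27a1*). These 9 genes are given as additions, so that 36 of the 44 collagen genes of RefSeq were measured, and the others were not analysed here. By class, 6 of the 27 genes encode the fibrillar types I, III and V, 4 encode the basement membrane types IV and XVIII, and 17 encode other types.

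Each genotype was hybridised to 3 arrays at passage 8 and day 0, before any differentiation, and no treatment was applied. Both genotypes are on a C57BL/6 background. *Alkbh1*-/- cells lack ALKBH1, a dioxygenase that uses 2-oxoglutarate, and WT cells came from littermate embryos of the same heterozygous matings. The arrays of each genotype share 1 line code in their descriptions, so that line and genotype cannot be told apart. Nothing in the labels says that the arrays of a genotype came from separate cultures, so the p-values measure only the spread between these samples, which may be technical. The mESCs were grown with LIF on irradiated mouse embryonic fibroblasts, and RNA of these feeder cells can be part of each sample. In such bulk samples, fewer cells of a type and less RNA per cell cannot be told apart.

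Collagens are secreted matrix proteins whose chains wind into triple helices. The fibrillar types I, III and V form the tensile fibrils of connective tissue and are made chiefly by fibroblasts and other mesenchymal cells. Type IV builds the sheet-like network of basement membranes, in which type XVIII is also found, and early embryonic epithelia and endoderm lay down such membranes. Before secretion, prolines and lysines of the chains are hydroxylated by enzymes that, like ALKBH1, depend on 2-oxoglutarate and iron, and the chains are then trimmed and cross-linked outside the cell.

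The tables hold no values of single arrays. Each gene is therefore given by its group means, computed from the deposited mean over all arrays and the difference, on the log2 scale of the normalized values. Differences are log2 values of *Alkbh1*-/- minus WT with their standard error (SE) and a 95% confidence interval, the SE being the ratio in size of the difference to its moderated test statistic. A gene was called where the adjusted p of limma's moderated test was under 0.05 and the linear fold was over 1.5, a log2 difference of 0.58. Over all probe sets the SE had a median of 0.11, with the 5th percentile at 0.07 and the 95th at 0.22.

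The targeted gene was the check on the labels. *Alkbh1* had a mean of 9.57 in WT and 4.69 in *Alkbh1*-/- arrays at its brighter probe set, a fall of 4.89 (SE 0.17, adjusted p = 2.99e-05). At its other probe set, the log2 difference was −1.79 (adjusted p = 0.000287). Where these probe sets lie relative to the deleted part of the gene is not given in the tables. The direction was read from a class comparison of the same arrays, whose classes carry line codes. One class has the line code of the *Alkbh1*-/- samples. The other has a code that no sample carries, and it was taken as WT from a note deposited with the tables, which corrects that code to the one of the WT samples. By value alone, 4261 of its 4326 entries matched this table with the direction *Alkbh1*-/- over WT and 0 with the opposite one, and 8 of the matched entries stood beside the same identifier. The rest stood beside another identifier, so the 2 deposited comparisons pair values and identifiers differently. The match therefore bears on the direction and not on the gene names.

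Of the 27 collagen genes, 22 had a lower and 5 a higher mean in *Alkbh1*-/- mESCs, and the median log2 difference was −0.35. Over all probe sets the median was −0.01, and 51.3% were lower. A single collagen gene passed the test, *Col9a2*, which was higher, and 0 passed in the lower direction. Of all probe sets 6.99% passed, 3.86% higher and 3.13% lower. At an unadjusted p under 0.05, 12 of the 27 were lower and 3 higher, where the shares over all probe sets were 13.9% and 13.0%. *Col8a1* and *Col12a1* have brighter probe sets named by identifier only, and with these in their place, an alternative chosen after seeing the data, 10 of the 27 were lower at an unadjusted p under 0.05. A difference past a 1.5-fold fall, with no test, was seen for 10 of the 27 collagens and for 4.49% of all probe sets. With the prior variance allowed to follow mean expression, *Col1a1* and *Col3a1* passed in the lower direction, where 3.41% of all probe sets did, and with Student's test or limma's treat at a fold of 1.5 no collagen passed. The shares of all probe sets that passed with Student's test or treat are not given here. Counts under them are therefore not read as a result about collagens.

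**Figure D1:**
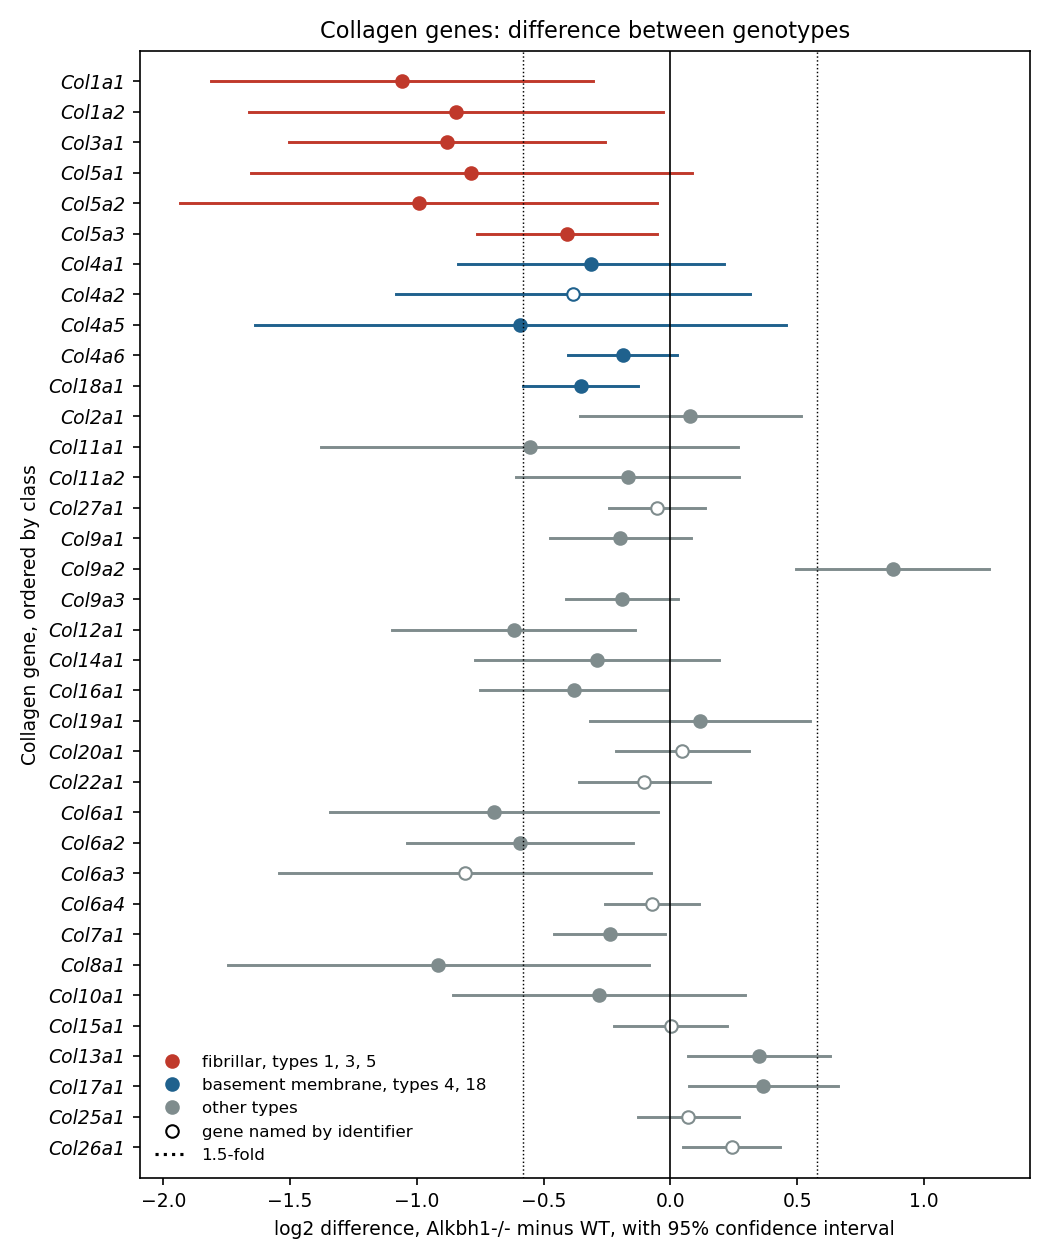
Log2 difference (*Alkbh1*-/- minus WT, horizontal axis) of 36 collagen genes, ordered by class on the vertical axis, with 95% confidence intervals as lines; open points are the 9 genes named by identifier and dotted lines mark a fold of 1.5. All 6 fibrillar genes of types I, III and V lie below 0, and *Col9a2* is the single gene that passed the test.

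The fibrillar collagens had the largest median difference of the classes. All 6 genes were lower in *Alkbh1*-/- mESCs, with a median of −0.86, against −0.33 for the 4 basement membrane genes and −0.24 for the 17 others. The classes also differed in brightness, with median means of 9.84, 6.81 and 5.73 in that order. Over probe sets at or above the median brightness of the table alone, the median of the other collagens was −0.59. The part of brightness in the class medians was not tested. The classes were not tested against each other, because genes read on the same arrays are not replicates. None of the 6 was called, while 5 had an unadjusted p under 0.05 and 5 were past a 1.5-fold fall. Over all probe sets, 3.13% were called lower, 13.9% were lower at that p and 4.49% were past such a fall. The summed linear level of the 6 genes was 10135 in WT and 5503 in *Alkbh1*-/- arrays, a ratio of 0.543.

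Type I collagen is the main fibril of skin, tendon and bone and is assembled from the chains of *Col1a1* and *Col1a2*. *Col1a1* had a mean of 9.04 in WT and 7.98 in *Alkbh1*-/- arrays, a log2 difference of −1.06 (SE 0.32, 95% CI −1.81 to −0.31, adjusted p = 0.0769). *Col1a2* had means of 12.25 and 11.40, a difference of −0.84 (SE 0.35, 95% CI −1.66 to −0.03, adjusted p = 0.172). Both intervals lay below 0, and a second probe set of each gene was at −1.02 for *Col1a1* and at −1.06 for *Col1a2*. The remaining *Col1a2* probe set has the lowest mean of the table, 3.22, and its difference is not read here.

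Type III collagen, the product of *Col3a1* alone, accompanies type I in extensible tissues. Its mean was 10.97 in WT and 10.09 in *Alkbh1*-/- arrays, a log2 difference of −0.88 (SE 0.26, 95% CI −1.50 to −0.26, adjusted p = 0.0755). Its second probe set was at −1.02. *Col3a1* had the lowest adjusted p of the fibrillar genes, ahead of *Col1a1*, and neither passed.

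Type V collagen nucleates type I fibrils and sets their width. *Col5a2*, which directly neighbours *Col3a1* in RefSeq with 0 genes between them, had means of 10.87 in WT and 9.88 in *Alkbh1*-/- arrays, a difference of −0.99 (SE 0.40, adjusted p = 0.165). *Col5a1* had means of 9.70 and 8.91, a difference of −0.79 (SE 0.37, 95% CI −1.66 to 0.08, adjusted p = 0.229). Its interval alone among the fibrillar genes reached above 0. *Col5a3*, the dimmest of the 6 probe sets, had means of 5.50 and 5.09 and the smallest difference of them, −0.41 (SE 0.15, adjusted p = 0.133). The second probe set of *Col5a2* was at −1.04, and those of *Col5a1* were at −0.83 and −0.39.

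The fibrillar differences came with wide errors. Their SEs ran from 0.15 to 0.40 with a median of 0.33, and 1.10% of all probe sets had an SE at or above that median. An adjusted p under 0.05 needed a statistic of at least 3.80 in size. At the errors of these 6 genes, a difference of 1.27 (median) would have reached that adjusted p, against 0.41 over all probe sets. *Col1a1* would have needed 1.21 and *Col3a1* 1.00, which their measured differences of −1.06 and −0.88 did not reach in size. The needed difference is the same threshold written on the scale of each gene's own SE, and the missing calls do not show that the fibrillar genes were equal in both genotypes.

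**Figure D2:**
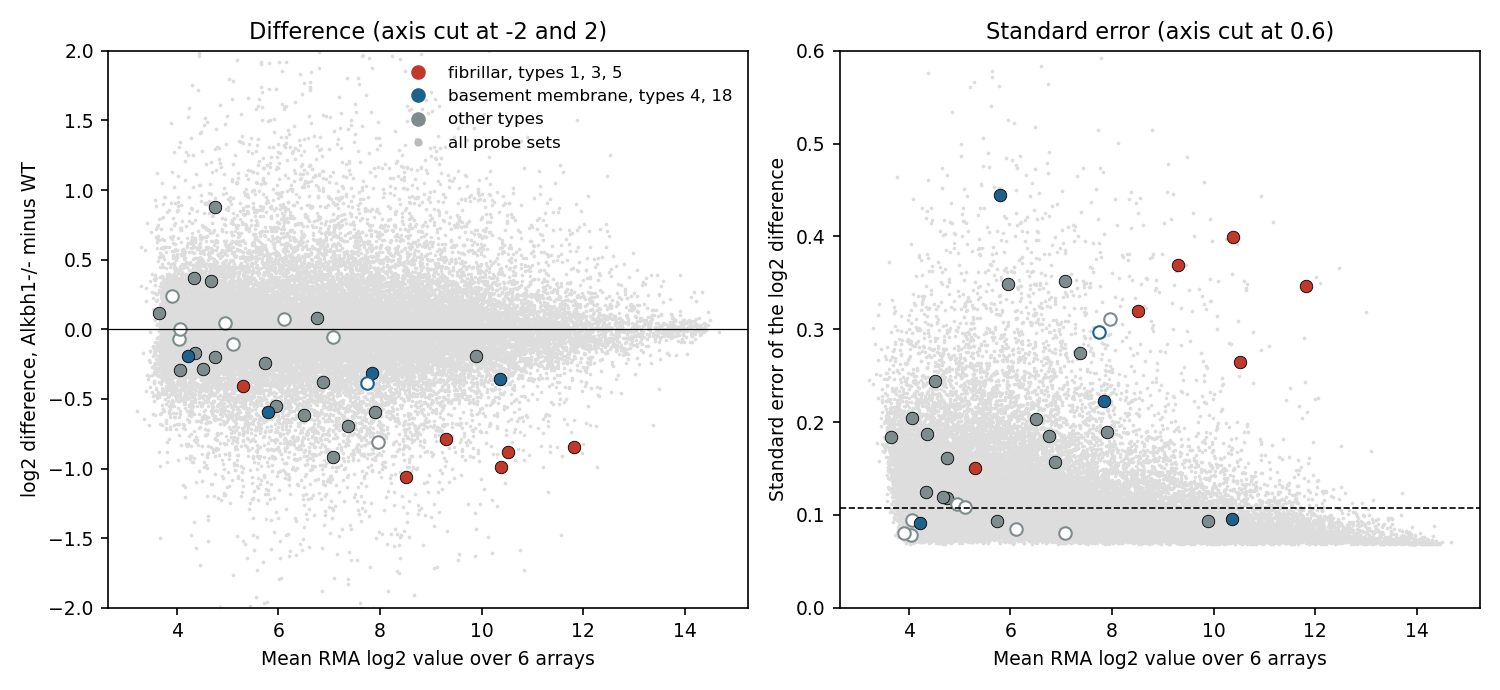
Log2 difference (left) and its standard error (right) against the mean log2 value over the 6 arrays; grey dots are all probe sets, coloured points the collagen genes, open points those named by identifier, and the dashed line the median SE of 0.11. The bright fibrillar genes (red) lie low on the left and high on the right.

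The basement membrane collagens showed smaller differences. All 4 genes were lower, 0 were called, 1 had an unadjusted p under 0.05, and the median was −0.33 (−0.35 with *Col4a2*, named by identifier). Over all probe sets, 51.3% were lower in sign, 3.13% were called lower and 13.9% were lower at that p. *Col4a1* and *Col4a2*, whose chains form the common type IV network, had differences of −0.31 (SE 0.22, 95% CI −0.84 to 0.21) and −0.38 (SE 0.30, 95% CI −1.08 to 0.31). The means of *Col4a1* were 8.00 in WT and 7.68 in *Alkbh1*-/- arrays, and those of *Col4a2* were 7.94 and 7.56. The pair is divergent, with starts 21 bases apart in RefSeq, and both intervals spanned 0 and reached past a 1.5-fold fall. The second probe set of *Col4a1* was at −0.20 (SE 0.22, adjusted p = 0.612).

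*Col18a1*, which encodes the proteoglycan collagen from which endostatin is cleaved, was the most precisely measured bright gene of the class. Its means were 10.55 in WT and 10.19 in *Alkbh1*-/- arrays, a difference of −0.35 (SE 0.10, 95% CI −0.58 to −0.13, adjusted p = 0.0551). Its second probe set was at −0.33 (adjusted p = 0.0512). With a prior variance that follows mean expression, the adjusted p was 0.0162, at a fold of 1.28 that stays under 1.5. *Col4a5* and *Col4a6* encode chains of specialised basement membranes and are neighbours on the X chromosome. Their differences were −0.59 (SE 0.44, adjusted p = 0.459) and −0.19 (SE 0.09, adjusted p = 0.243). *Col4a5* had the widest error of all 36 collagens, with means of 6.08 and 5.49, and *Col4a6* was dim in both genotypes at 4.31 and 4.13. The second probe set of *Col4a5* was at −0.41 with a smaller error (SE 0.22, adjusted p = 0.298). Among all 932 X-linked probe sets, the median difference was 0.47, 759 were higher and 173 lower in sign, and 376 were called higher and 14 lower (3.86% and 3.13% over all probe sets).

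**Figure D3:**
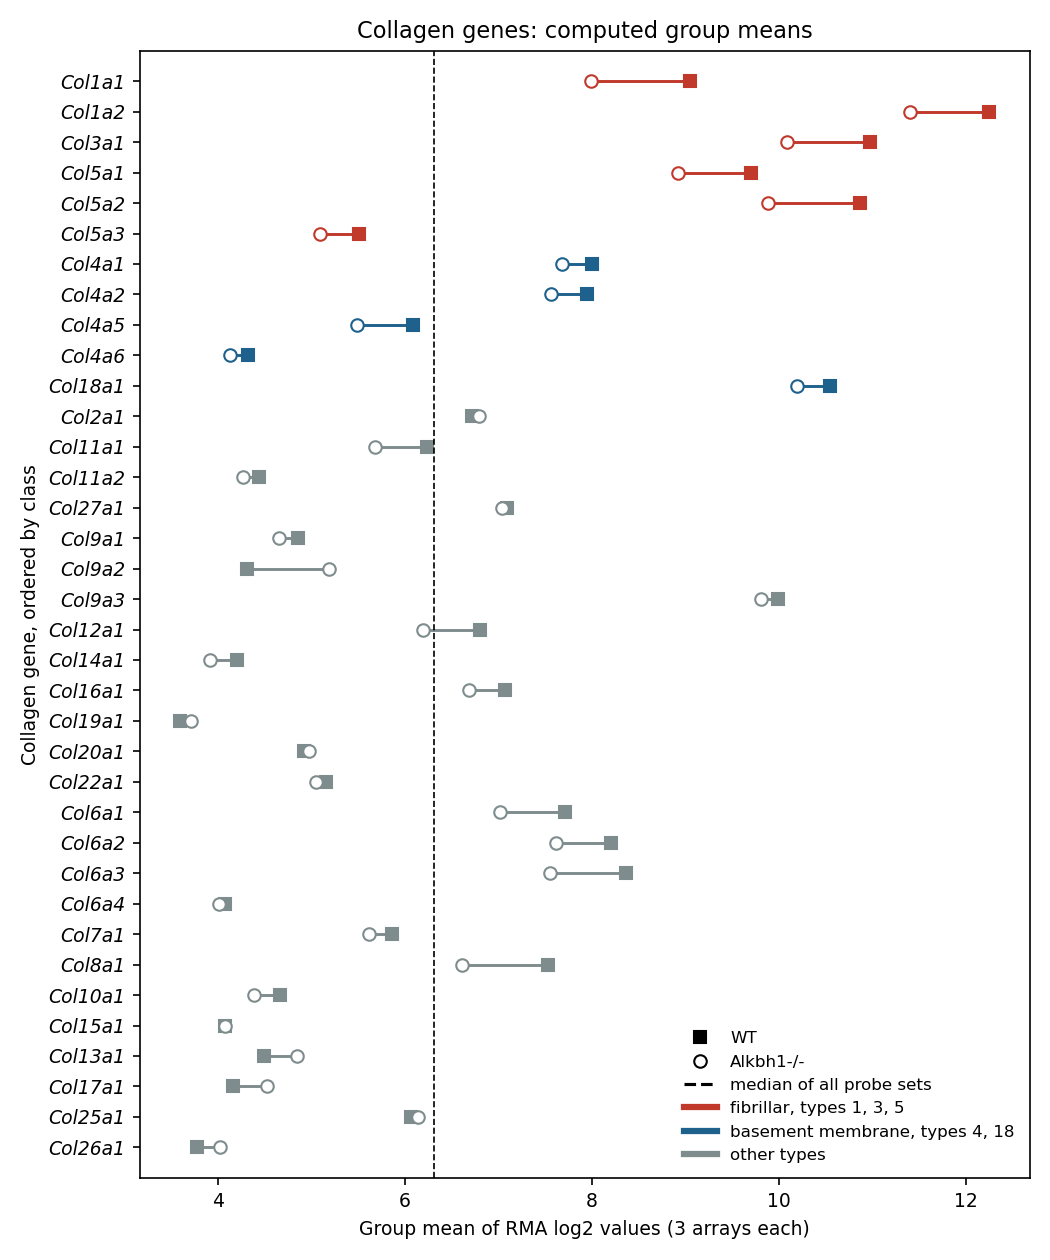
Computed group means of the normalized log2 values (horizontal axis, 3 arrays each) for the 36 collagen genes; squares are WT, open circles *Alkbh1*-/-, and the dashed line is the median of all probe sets at 6.31. Most genes to the right of the line have the circle to the left of the square; positions of different genes cannot be compared as levels, since probe sets differ in brightness.

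Among the remaining types, *Col8a1*, 3 chains of type VI and *Col12a1* gave the larger negative differences. Type VI collagen forms microfibrils around cells from the chains of *Col6a1*, *Col6a2* and *Col6a3*, and these had differences of −0.70 (SE 0.27, adjusted p = 0.157), −0.59 (SE 0.19, adjusted p = 0.0905) and −0.81 (SE 0.31, adjusted p = 0.148). Their means were 7.71 and 7.02, 8.20 and 7.61, and 8.36 and 7.55 in WT and *Alkbh1*-/- arrays. The related *Col6a4* was dim, with a mean of 4.04 over all arrays and a difference of −0.07. *Col8a1*, a chain of the network made in vessel walls and cornea, had means of 7.52 and 6.61 and a difference of −0.91 (SE 0.35, 95% CI −1.74 to −0.09, adjusted p = 0.148). Its brightest probe set, named by identifier only, was at −0.80 (SE 0.37, 95% CI −1.68 to 0.08), with an interval that spanned 0, and the others were at −0.76 and −0.59. *Col7a1*, the anchoring fibril of skin, was at −0.24 (SE 0.09, adjusted p = 0.152), and *Col10a1*, of hypertrophic cartilage, at −0.28 (SE 0.24, adjusted p = 0.528).

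The fibril-associated collagens, which decorate the surface of fibrils, were mixed. *Col12a1* had means of 6.80 and 6.19 and a difference of −0.62 (SE 0.20, adjusted p = 0.0979), and a brighter probe set named by identifier gave −0.88 with a wider error and an interval that spanned 0 (SE 0.44, 95% CI −1.91 to 0.15). *Col16a1* was at −0.38 (SE 0.16, adjusted p = 0.176) and *Col14a1* at −0.29 (SE 0.20, adjusted p = 0.428). *Col19a1*, *Col20a1* and *Col22a1* lay between −0.10 and 0.12 with intervals that spanned 0. Of the cartilage fibril chains, *Col11a1* was at −0.55 (SE 0.35, adjusted p = 0.369) and at −0.91 (SE 0.43, adjusted p = 0.230) at a dimmer probe set, *Col11a2* at −0.17, *Col27a1* at −0.05 and *Col2a1* at 0.08. *Col15a1*, a relative of *Col18a1*, was at 0.00.

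*Col9a2* rose. It encodes a chain of type IX collagen, which coats the fibrils of cartilage. Its mean was 4.31 in WT and 5.18 in *Alkbh1*-/- arrays, a log2 difference of 0.88 (SE 0.16, 95% CI 0.50 to 1.26) and a fold of 1.84, with an adjusted p of 0.0136. Its partners in the same triple helix had lower means, and the contrast between the chains was not tested: *Col9a1* was at −0.20 (SE 0.12, 95% CI −0.48 to 0.08, adjusted p = 0.342) and *Col9a3* at −0.19 (SE 0.09, 95% CI −0.41 to 0.03, adjusted p = 0.249). The *Col9a2* probe set was dim, at or above 24.0% of the table in mean, and its interval reached below a fold of 1.5. The call was lost with Student's test (adjusted p = 0.0886) and with treat at a fold of 1.5 (adjusted p = 1.00).

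The transmembrane collagens had higher means in *Alkbh1*-/- arrays. *Col13a1*, found at neuromuscular junctions, had a difference of 0.35 (SE 0.12, adjusted p = 0.109), and *Col17a1*, of the hemidesmosomes that hold epithelia to their membrane, one of 0.37 (SE 0.12, adjusted p = 0.108). *Col25a1* was at 0.07 (SE 0.08), and *Col26a1*, which belongs to none of these classes, at 0.24 (SE 0.08, adjusted p = 0.103). None passed, and all 4 lay under the median brightness of the table.

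The differences varied with brightness. Of the 36 collagens, 17 had a mean at or above the median of the table, and 16 of these were lower, with a median of −0.62, and at an unadjusted p under 0.05 there were 11 lower and 0 higher. Of the 19 dimmer ones, 11 were lower, with a median of −0.10, and 2 were lower and 4 higher at that p. The means of these 19 had a median of 4.66, on a scale whose lowest mean was 3.22. Small differences there do not show that a gene was equal in both genotypes. Over all probe sets, 51.3% were lower in sign, and 13.9% were lower and 13.0% higher at that p. Across the 27 genes named by symbol, Pearson's r between the mean and the difference was −0.63 and Spearman's rho −0.71, against 0.01 and 0.00 over all probe sets. This is a description across genes read on the same 6 arrays, and genes are not independent replicates. The SE of the 27 genes was higher in brighter ones (r = 0.37), where over all probe sets it was lower (r = −0.30).

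The promoters of a few of these genes show what the members share and do not share in sequence near their start. RefSeq (GRCm38.p6) gives a promoter for 28 of the 36 genes in 31 entries. The windows hold the 250 bases before the start on the coding strand, 5′ to 3′, and are shown for *Col1a2*, *Col3a1* and *Col5a1*, 1 gene of each fibrillar type, and for *Col9a2*, the gene that rose. They lie on the plus strand at chr6:4505368-4505617, chr1:45311288-45311537, chr2:27886175-27886424 and chr4:121039316-121039565. Capitals mark exact matches on either strand to CCAAT, to the GC box GGGCGG, which reads CCGCCC on the other strand, and to TATAAA, and no marked matches overlap.
Col1a2: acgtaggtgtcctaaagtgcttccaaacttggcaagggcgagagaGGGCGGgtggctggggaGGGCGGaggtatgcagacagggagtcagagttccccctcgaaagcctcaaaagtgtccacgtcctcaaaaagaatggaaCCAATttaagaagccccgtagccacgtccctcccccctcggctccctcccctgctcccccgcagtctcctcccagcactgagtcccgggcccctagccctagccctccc
Col3a1: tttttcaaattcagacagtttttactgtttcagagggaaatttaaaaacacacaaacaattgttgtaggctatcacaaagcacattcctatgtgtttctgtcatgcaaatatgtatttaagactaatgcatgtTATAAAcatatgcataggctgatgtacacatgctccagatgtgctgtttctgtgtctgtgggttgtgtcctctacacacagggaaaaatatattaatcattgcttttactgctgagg
Col5a1: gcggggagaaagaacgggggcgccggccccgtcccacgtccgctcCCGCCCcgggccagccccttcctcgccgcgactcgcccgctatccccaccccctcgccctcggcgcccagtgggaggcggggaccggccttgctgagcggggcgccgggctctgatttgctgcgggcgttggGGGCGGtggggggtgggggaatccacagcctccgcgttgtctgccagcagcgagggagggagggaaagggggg
Col9a2: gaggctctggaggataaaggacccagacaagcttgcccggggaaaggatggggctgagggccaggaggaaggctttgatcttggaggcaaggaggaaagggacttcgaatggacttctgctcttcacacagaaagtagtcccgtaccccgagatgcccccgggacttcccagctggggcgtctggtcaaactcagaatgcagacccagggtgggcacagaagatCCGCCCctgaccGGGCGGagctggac

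In these windows, *Col1a2* held a CCAAT match that begins 109 bases before the start and GC boxes at 205 and 188 bases. *Col3a1* held no GC box and a TATAAA match at 117 bases, *Col5a1* held GC boxes at 205 and 73 bases, and *Col9a2* held them at 26 and 14 bases. Of the 31 collagen entries, 13 held a CCAAT match (41.9%), 18 a GC box (58.1%) and 5 a TATAAA match (16.1%). Over all 32851 promoter windows of the same length, the shares were 33.9%, 32.7% and 12.4%. A match is a run of letters and not a bound site, and nothing in the arrays bears on the factors that bind there.

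Genes that modify, trim, bind and remove collagen were read alongside. Of 71 such genes, 64 were measured, 2 were called higher and 3 lower, or 3.13% and 4.69%, near the 3.86% and 3.13% of all probe sets. The 20 genes of chain modification and folding held 0 called genes, 15 lower means and a median of −0.25. *Plod1*, a lysyl hydroxylase, was at −0.55 (adjusted p = 0.0183) and *P3h1*, a prolyl 3-hydroxylase, at 0.47 (adjusted p = 0.0388), both under a fold of 1.5. Dimmer probe sets of these genes were at −0.19 (adjusted p = 0.536) for *Plod1* and at 0.24 (adjusted p = 0.506) for *P3h1*. By adjusted p alone, 6.32% of all probe sets were lower and 6.63% higher. The brightest genes of the list were nearly level, with the prolyl isomerase *Ppib* at 0.04 and *P4hb*, a subunit of prolyl 4-hydroxylase, at −0.02. *Serpinh1*, the chaperone of procollagen, was at −0.12 (SE 0.25).

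In processing and cross-linking, 10 of 13 genes were measured, 8 were lower and the median was −0.55. *Pcolce2*, an enhancer of procollagen C-proteinase, rose from 8.80 to 10.25, a difference of 1.45 (SE 0.09, 95% CI 1.23 to 1.66, adjusted p = 0.000253). Its relative *Pcolce* was at −0.11, and *Lox*, the cross-linking lysyl oxidase, was at −0.94 (SE 0.35, adjusted p = 0.136). The called gene of this list was therefore higher while most of its members had lower means.

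Of the collagen receptors, 8 of 10 were measured and 7 were lower, with a median of −0.26. *Itga1*, the integrin chain that binds collagens with *Itgb1*, fell from 7.17 to 5.54, a difference of −1.62 (SE 0.23, 95% CI −2.17 to −1.08, adjusted p = 0.00483), while its second probe set, dim at a mean of 3.83, was at −0.39. With Student's test the adjusted p was 0.0603. *Itgb1* was at −0.37 (adjusted p = 0.280). The receptor kinase *Ddr1* was at −0.44 (adjusted p = 0.0473), at a fold of 1.36. Its other probe sets lay between −0.35 (adjusted p = 0.100) and 0.00, and none of them had an adjusted p under 0.05.

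In turnover, all 8 measured genes of 9 were lower, with a median of −0.72. *Mmp14*, a membrane-bound collagenase, had a mean of 8.62 over all arrays and fell, with a difference of −0.76 (SE 0.17, adjusted p = 0.0259, and 0.123 with Student's test). Its other probe sets were at −0.60 and −0.39. The inhibitors of these proteases, *Timp1*, *Timp2* and *Timp3*, were at −0.09, −0.68 and −0.91 (SE 0.22, 0.32 and 0.38), and none passed.

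Among proteins bound to fibrils, 10 of 11 were measured, 8 were lower, 0 were called and the median was −0.65. The small proteoglycan *Bgn* was at −0.91 (SE 0.35, adjusted p = 0.152), fibronectin, *Fn1*, at −0.38 and *Sparc* at 0.18. A dimmer *Fn1* probe set, with a mean of 8.97, went the other way, at 0.16 (adjusted p = 0.610). The partners of collagen IV in basement membranes were split, with 4 of 8 lower and a median of 0.03. The laminin chain *Lamb1* fell from 10.76 to 9.86 (difference −0.90, SE 0.08, adjusted p = 0.00072), and *Nid1*, which links laminin to type IV collagen, rose from 9.79 to 10.49 (difference 0.70, SE 0.15, adjusted p = 0.0220, and 0.108 with Student's test). Other *Lamb1* probe sets were at −0.91 and −0.91, and the dimmest ones, with means of 5.54 and 4.50, at −0.14 and −0.15.

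**Figure D4:**
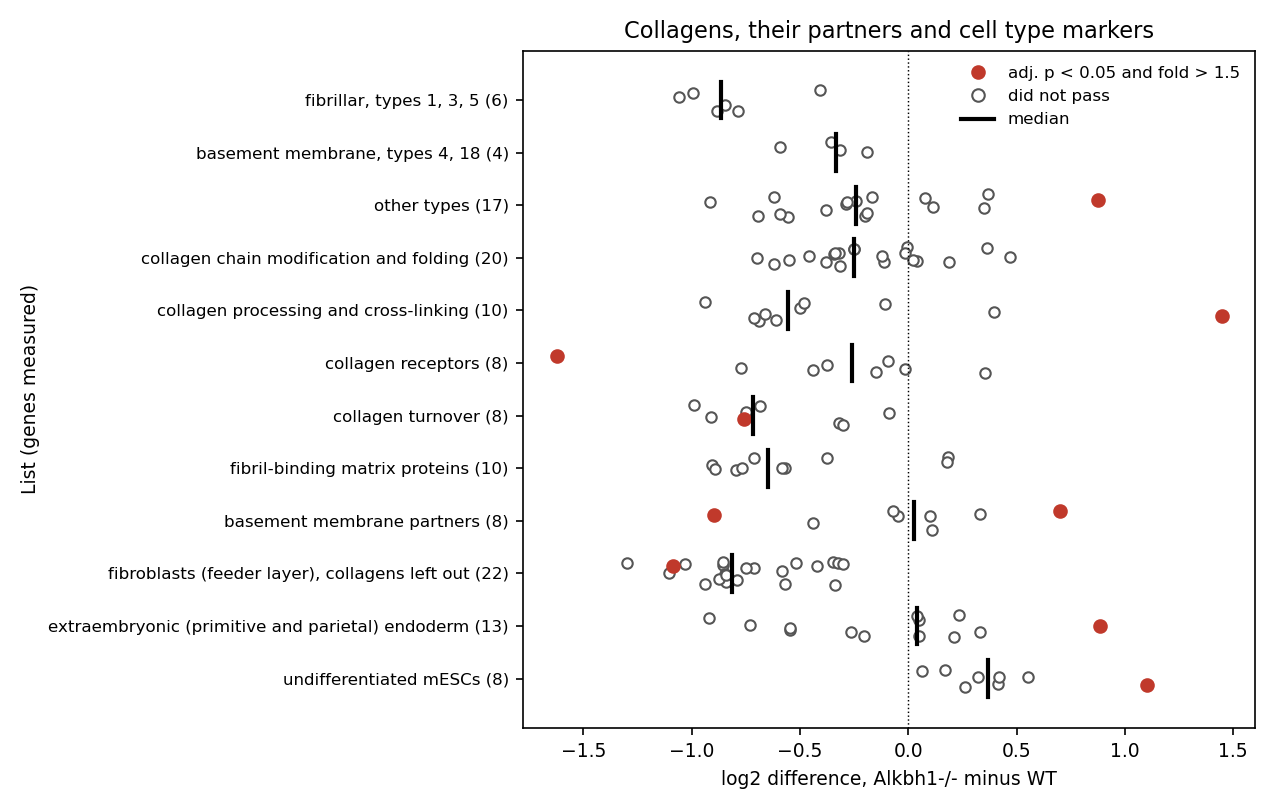
Log2 difference (*Alkbh1*-/- minus WT, horizontal axis) of every measured gene of the collagen classes, the partner lists and the cell type marker lists, with the number of genes in brackets; bars are medians and filled points are genes that passed the test. The fibroblast markers (median −0.81) and the fibrillar collagens (median −0.86) lie to the left, and the mESC markers (median 0.37) to the right.

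Markers of the feeder fibroblasts were lower along with the fibrillar collagens. All 22 markers, collagens left out, had a lower mean in *Alkbh1*-/- arrays, with a median of −0.81, 10 at an unadjusted p under 0.05, where 13.9% of all probe sets were lower, and 1 called, where 3.13% were. The called gene was the microfibril gene *Mfap5* (−1.09, SE 0.23, adjusted p = 0.0221), which did not pass with Student's test (adjusted p = 0.124). With the trend prior 3 markers passed (*Mfap5*, *Cnn1* and *Mmp2*), where 3.41% of all probe sets were called lower. The summed linear level of the 22 markers was 12210 in WT and 6618 in *Alkbh1*-/- arrays, a ratio of 0.542. The ratio was 0.543 for the 6 fibrillar collagens, 0.782 for the 4 basement membrane genes and 0.799 for the 17 others, and each such sum is weighted towards its brightest probe sets. The marker with the brightest probe set was *Acta2*, smooth muscle actin, at 11.60 and 10.76 (−0.84, SE 0.42). The largest difference was that of *Cnn1*, a calponin of contractile cells, at −1.30 (SE 0.38, adjusted p = 0.0717). The smallest was that of *Fap*, −0.30, at a dim probe set with a mean of 3.87. The median SE of the markers was 0.32, near that of the fibrillar collagens. Of the 22 markers, 5 (*Lum*, *Dcn*, *Postn*, *Lox* and *Mmp2*) also stand in the partner lists. The marker list was chosen with earlier results of these data known, so its likeness to the fibrillar collagens is only a description. The part of the feeder cells in the collagen differences was not tested.

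Markers of extraembryonic endoderm, another source of basement membrane, lay on both sides of 0. Of its 13 measured markers of 14, 6 were lower and the median was 0.04. At an unadjusted p under 0.05, 4 were lower (*Dab2*, *Amn*, *Cubn* and *Thbd*) and 1 higher, where 13.9% and 13.0% of all probe sets were. *Cubn* had an adjusted p of 0.0388 at a fold of 1.46, and 6.32% of all probe sets were lower by adjusted p alone. Its probe set was dim, with means of 4.21 in WT and 3.66 in *Alkbh1*-/- arrays. In this list the summed level went from 879 to 800 (ratio 0.910). *Sox7* was called higher at 0.88 (SE 0.13, adjusted p = 0.00516), where 3.86% of all probe sets were. *Dab2* had the largest negative difference, −0.92 (SE 0.29, adjusted p = 0.0858), and *Lama1*, with the brightest probe set, was at 0.33. Of the transcription factors on the list, *Gata4*, *Gata6* and *Foxa2* lay between 3.90 and 4.58 in both genotypes, on a scale whose lowest mean was 3.22. *Sox17* had means of 5.29 and 5.33, *Sox7* of 4.91 and 5.79, and *Hhex* of 7.11 and 6.91 in WT and *Alkbh1*-/- arrays.

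The labelled cell type was borne out by its own markers, all 8 of which were bright. Their summed level was 50934 in WT and 62071 in *Alkbh1*-/- arrays, a ratio of 1.22, and the median difference was 0.37. *Nanog* rose (1.10, SE 0.09, adjusted p = 0.000591), and *Dppa5a*, with the brightest probe set, had means of 14.46 and 14.52. *Pou5f1* had means of 12.55 and 12.72.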

How the data were processed

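RNA of 3 WT and 3 *Alkbh1*-/- mESC samples was read on Affymetrix Mouse Genome arrays, which the authors normalized with RMA. The members and gene lists were chosen with earlier results of these data known. The authors deposited log2 differences and log2 means of 33142 probe sets, kept by a filter not given in the sources used here. The authors also deposited a score, the moderated statistic, and its p-value and adjusted p-value. A second deposited table gives geometric mean intensity per class and the fold ratio between classes, and was used only for the direction. The statistic has the opposite sign to the difference in all 33142 probe sets, so sizes were used.

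A limma fit to single arrays had been planned. Their values were not analysed here, and the authors' own comparison took the place of that fit. Total degrees of freedom of 7.14 (4 residual, 3.14 prior) and a prior variance of 0.0160 were recovered with limma 3.58.1 in R 4.3.3, after tests on simulated data. Student's test, a trend prior and treat used the recovered variances, and p-values were adjusted by Benjamini-Hochberg over all probe sets. Intervals for a difference cover the spread between 3 arrays a group, whose number limits the precision. Named genes were every collagen, called partner genes, the 2 brightest members of each partner list, and of each marker list the gene with the brightest probe set and those with the largest fall and rise. *Timp3*, *Plod1*, *P3h1*, *Serpinh1*, *Bgn* and a few marker genes were named after their values were seen. Alternatives changed the fold and p thresholds, the variance prior, the brightness filter and the choice of probe set. Promoters came from RefSeq GRCm38.p6. Python 3.11.15 with pandas 2.3.3, SciPy 1.17.1, NumPy 2.4.6 and matplotlib 3.10.9 was used.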

Additional observations from a re-analysis of the deposited data

How the results depend on the processing

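The median differences of the fibrillar and basement membrane collagens kept their sign under each alternative run. *Col9a2*, the 1 collagen called higher, was not called (0 genes) with a log2 difference over 1.5, with Student's test, with treat, or among probe sets at or above the median brightness, the last because the gene is dimmer than that median. Of 0 collagens called lower, 8 passed with an unadjusted p in place of the adjusted one (*Col1a1*, *Col1a2*, *Col3a1*, *Col5a2*, *Col6a1*, *Col6a2*, *Col8a1* and *Col12a1*; 1325 of 33142 probe sets did), and 2 with a trend prior (*Col1a1* and *Col3a1*). The median of the 17 other collagens went from −0.24 to −0.59 over the brighter probe sets alone. Partner genes called higher went from 2 to 1 with Student's test, without *Nid1*, and those called lower from 3 to 1 with Student's test, without *Itga1* and *Mmp14*, and to 5 with no fold threshold. In alternatives chosen after seeing the data, fibroblast markers called lower went from 1 to 0 with Student's test and to 3 with a trend prior. With no fold threshold, 1 endoderm marker was called lower and 4 mESC markers higher, in place of 0 and 1. By adjusted p alone, 6.32% of all probe sets were lower and 6.63% higher. No share over all probe sets is given here for Student's test or treat, so counts under them are not read as results about these genes. For the changes with a test or prior, the cause was not tested. No paired analysis was possible because the labels number the arrays but the tables hold no values of single ones, and for the same reason leaving out each replicate was not run. With 3 arrays a group, the wide errors of the fibrillar genes limit what can be called.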
